A study of Mus musculus with 4 samples.

Results

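Lipoprotein and cholesterol transport in the mouse hippocampus was followed through 9 genes: the apolipoprotein genes Apoe and Clu, the lipase gene Lpl, the receptor genes Lrp1 and Vldlr, the exporter genes Abca1 and Abcg1, and the lipid storage genes Soat1 and Plin2. The genes were taken by symbol from a list that was chosen with earlier results of these data known. Of these, 9 of 9 were present among the 55403 features of the count tables. Shares of them that were called are set beside those of all genes as a description. Unique molecular identifiers (UMIs) of each gene were summed per library within cell classes defined by marker genes. A level is given in CPM, the UMIs of a gene per 1000000 UMIs of its class in that library.

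Brain lipoproteins are assembled mainly by astrocytes, which secrete apolipoprotein E and clusterin and load them with cholesterol and phospholipid through the membrane transporters ABCA1 and ABCG1. Cells take the particles up through endocytic receptors, among them LRP1 and VLDLR, and lipoprotein lipase releases fatty acids from their triglycerides. Surplus cholesterol is esterified by SOAT1 and kept in lipid droplets, whose surface carries perilipin 2 (PLIN2), or is exported again under control of the liver X receptors. Microglia that respond to tissue damage are known for raised Apoe and Lpl, a pattern called the disease-associated state.

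The libraries were made from nuclei of frozen, pooled hippocampus with a droplet-based 3′ kit. One group was labelled WT (1 library). PS19 mice (2 libraries) carry human tau with the P301S mutation (1N4R isoform) under the Prnp promoter, from the B6;C3 line. TG_PS19 mice (1 library) carry that tau transgene and overexpress SORLA from Rosa26 through a CMV/β-actin promoter, which is not limited to a cell type. The mice were littermates from these crosses and are called aged in the series title. Age, sex, the number of animals pooled and the relation of the PS19 libraries to each other (the same pool or not) were not given. WT and TG_PS19 had no replicate, so every p-value takes its spread from the PS19 pair, which may be technical. PS19 against WT addresses what goes with the tau transgene, and TG_PS19 against PS19 what goes with added SORLA in those mice. Pool and library preparation cannot be told apart from genotype in either comparison, nor can the sex mix of the TG_PS19 library described below be told apart from SORLA. Both comparisons use the same PS19 libraries.

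Total UMIs ranged from 20064025 to 48670533 per library and median UMIs per nucleus from 2643 to 3708.5. The PS19 pair differed from both other libraries in size and depth, with 4643 and 4924 nuclei at medians of 2996 and 3708.5 UMIs, against 12762 nuclei at 2643 UMIs in WT and 9719 nuclei at 2659 UMIs in TG_PS19. Every difference below in which PS19 stands apart from WT and TG_PS19 moves with this, and its part in them was not tested beyond thinning nuclei to equal depth. Human MAPT was at 0 UMIs in WT and at 12.5 to 18.7 CPM in the other 3 libraries, and human SORL1 was at 65.1 CPM in TG_PS19 and at most 0.349 CPM elsewhere. The TG_PS19 library stood apart in sex: 4554 of its kept nuclei were called by Xist and 2174 by Y-linked genes, whereas at most 27 nuclei of another library were called by Xist. For the 9 genes, results for TG_PS19 are therefore also given from its Y-called nuclei alone where that ended a call. Pairs of libraries shared 5 to 32 barcodes. Clustering gave 33 clusters, and 12 of the named classes reached 50 nuclei in each library. Each class resembles its cell type by marker genes, and its name is written below without the suffix "-like". Dentate granule neurons, the principal cells of the hippocampal dentate gyrus, numbered 1605 in WT, 480 and 546 in PS19 replicates 1 and 2, and 991 in TG_PS19. Unnamed clusters held 151 to 948 nuclei per library. Of these, a cluster led by Ttr with Xist among its leading genes held 657 TG_PS19 nuclei and at most 110 of another library, and a cluster with Fabp7 among its leading genes held 281 WT nuclei and at most 1 of another library.

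Promoter windows were available in RefSeq (build GRCm38.p6) for 6 of the 9 genes. The 4 windows below belong to the genes that were higher in PS19 than in WT microglia and had a window, and they are shown so that their motif content can be compared. Each runs 5′ to 3′ on the gene's strand for 260 bases, and the transcription start is the first of its last 10 bases. Capitals mark matches to any of 7 motifs searched on both strands. Of the 3 Apoe windows, the one at the outermost start is shown.
Abca1, minus strand, chr4:53159886-53160145: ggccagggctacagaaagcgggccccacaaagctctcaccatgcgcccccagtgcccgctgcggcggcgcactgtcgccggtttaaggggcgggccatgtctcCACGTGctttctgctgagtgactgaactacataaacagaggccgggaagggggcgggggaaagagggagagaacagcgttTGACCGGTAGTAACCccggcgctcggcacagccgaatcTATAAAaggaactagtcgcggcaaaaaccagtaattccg
Plin2, minus strand, chr4:86670050-86670309: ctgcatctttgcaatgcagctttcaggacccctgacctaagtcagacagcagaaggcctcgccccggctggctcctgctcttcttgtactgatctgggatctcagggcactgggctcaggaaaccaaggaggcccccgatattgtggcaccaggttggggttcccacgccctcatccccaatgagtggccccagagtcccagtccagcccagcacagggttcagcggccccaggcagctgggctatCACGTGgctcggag
Soat1, minus strand, chr1:156474319-156474578: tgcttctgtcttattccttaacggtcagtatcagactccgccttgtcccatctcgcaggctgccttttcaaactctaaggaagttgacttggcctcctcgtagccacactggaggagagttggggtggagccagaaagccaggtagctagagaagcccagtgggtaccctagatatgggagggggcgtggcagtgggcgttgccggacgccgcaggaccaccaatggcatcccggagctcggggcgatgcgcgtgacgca
Apoe, minus strand, chr7:19699179-19699438: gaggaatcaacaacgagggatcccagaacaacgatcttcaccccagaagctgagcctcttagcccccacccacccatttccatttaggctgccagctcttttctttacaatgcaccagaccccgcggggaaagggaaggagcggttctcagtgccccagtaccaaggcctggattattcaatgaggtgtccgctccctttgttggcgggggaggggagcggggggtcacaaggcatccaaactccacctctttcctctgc
The motifs were CACGTG (the E-box of the CLEAR element read by TFEB and MITF), TCACNCCAC (a sterol response element), TGANTCA (AP-1), GAGGAAGT (the PU.1 core), TATAAA, the DR4 element of the liver X receptors, and a relaxed DR4 form with fewer fixed letters. The relaxed form was added after the strict form had matched no gene of the list, and with the element described in the Abca1 promoter in mind, so its match there is no independent find. Abca1 held CACGTG at -147 from the start, the relaxed DR4 form on the opposite strand at -67 and TATAAA at -29. Plin2 held CACGTG at -4. Soat1 and the Apoe window shown held none of the 7 within 300 bases, and another Apoe window held TATAAA at -96, with an overlapping match on the opposite strand at -100. Over 32851 promoter windows of 300 bases, CACGTG was present in 7.15%, TATAAA in 13.6% and the relaxed DR4 form in 0.207%. TCACNCCAC was present in 1.24%, TGANTCA in 7.81%, GAGGAAGT in 3.2% and the strict DR4 form in 0.231%. A match describes letters in a window and not a bound site.

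Each gene had its own order of levels over the 12 classes. Mean CPM over the 4 libraries is given with the range over libraries, as a description without a test. Apoe was highest in astrocytes at 3852 CPM (3193 to 4576), above fibroblasts at 1547 CPM and microglia at 1526 CPM, whose ranges overlapped. Clu was highest in astrocytes at 1401 CPM (762 to 2131), with no overlap with endothelial cells at 189 CPM. Lpl was at 46.7 CPM in CA1 pyramidal neurons, 42.5 CPM in microglia and 38.8 CPM in other excitatory neurons, and these ranges overlapped, with the microglial range running from 4.198 to 92.8 CPM. Lrp1 was at 483 CPM in microglia and 379 CPM in fibroblasts, with overlapping ranges, and lowest in oligodendrocytes at 17.7 CPM.

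Vldlr was highest in oligodendrocytes at 127 CPM (117 to 142) and did not overlap with oligodendrocyte precursors at 54.6 CPM. Abca1 was at 404 CPM in microglia, 295 CPM in fibroblasts and 259 CPM in astrocytes, each overlapping its neighbour in that order. Abcg1 was at 153 CPM in oligodendrocytes and 126 CPM in microglia, with overlapping ranges. Astrocytes were the lowest class for Abcg1 at 3.64 CPM, apart from all others. Soat1 was highest in astrocytes at 184 CPM (177 to 189), above microglia at 112 CPM (59.6 to 175). Plin2 stood between 26.4 and 29.0 CPM in endothelial cells, mural cells and microglia, which overlapped, and at 0.264 CPM in dentate granule neurons.

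**Figure D1:**
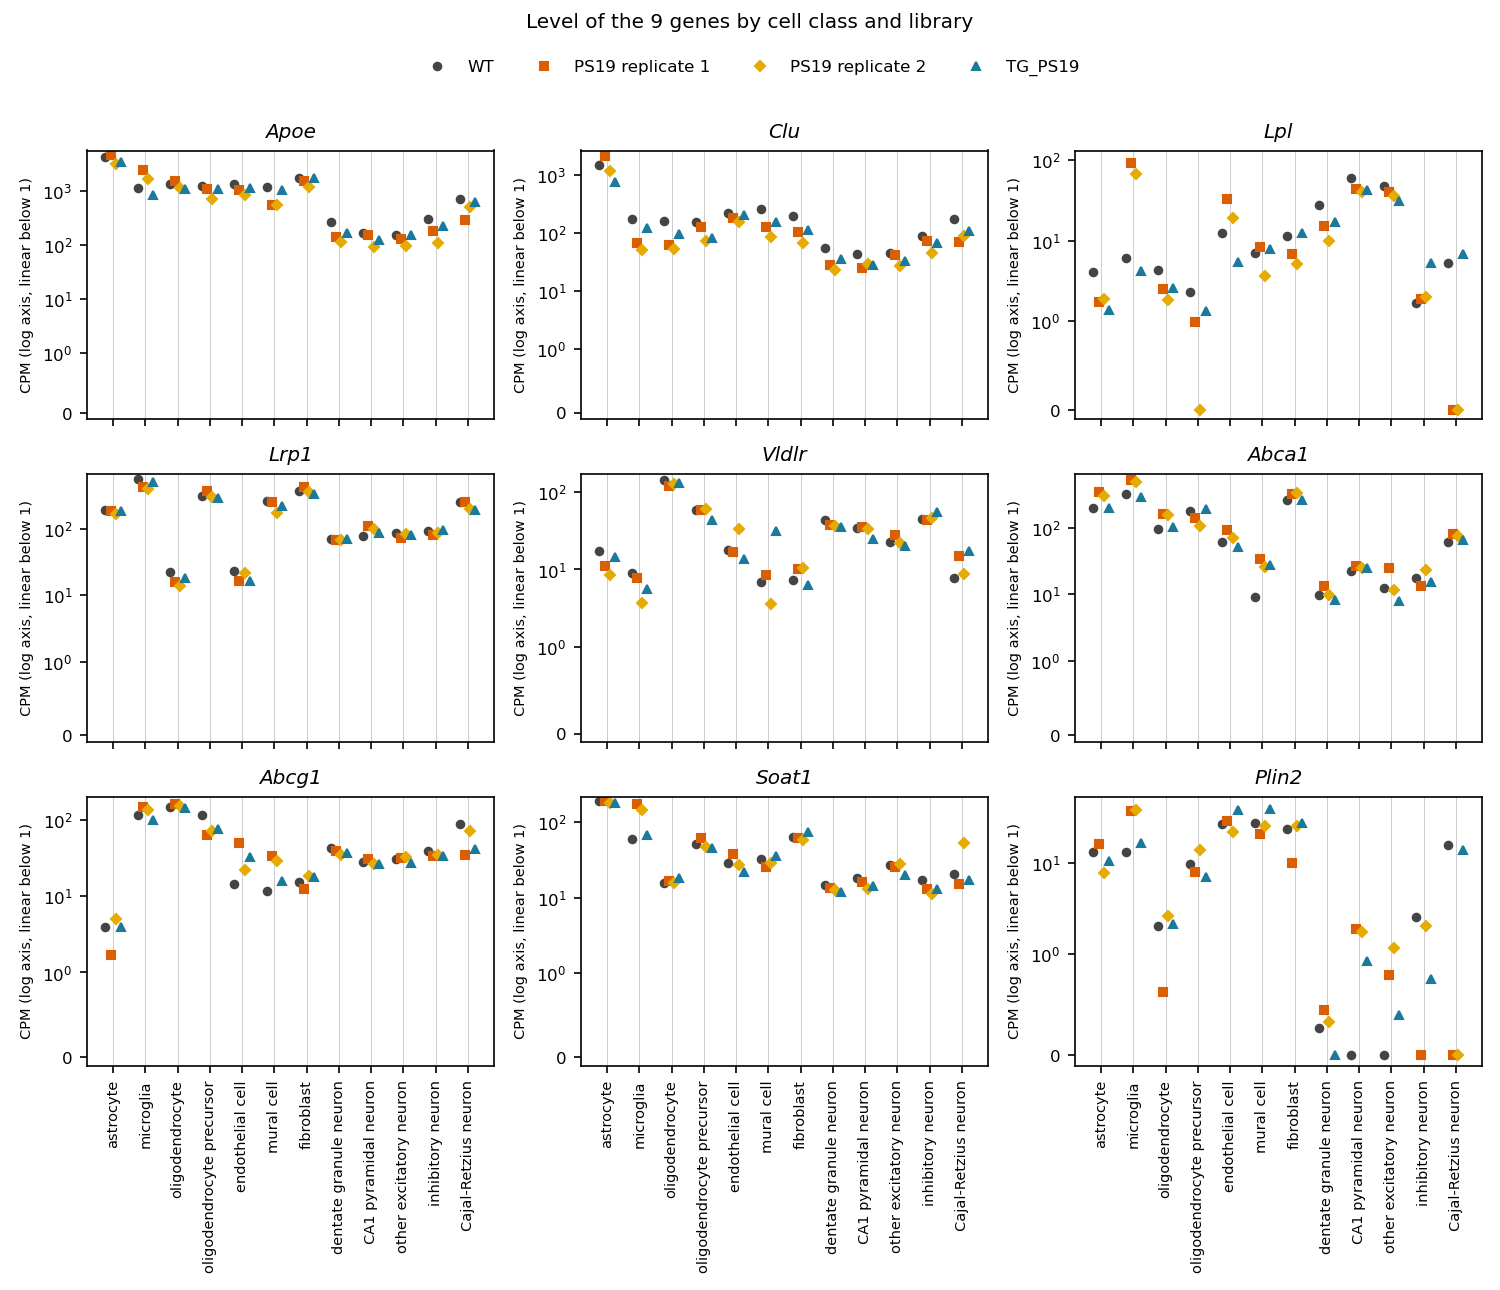
Level of each of the 9 genes (y axis, CPM on a log axis that is linear below 1) in 12 cell classes (x axis), with 1 point per library: WT, PS19 replicates 1 and 2, and TG_PS19. Apoe and Clu peak in astrocytes, Vldlr in oligodendrocytes, and the Lpl points of the PS19 libraries in microglia (92.8 and 66.9 CPM) stand above those of WT and TG_PS19 (6.06 and 4.198 CPM).

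Of 108 pairs of a gene and a class, 91 passed the filter on low counts and were tested, with the threshold at an adjusted p of 0.05. In PS19 against WT, 17 pairs were called, 7 higher and 10 lower, where 2.7% of all tested gene and class pairs were called (1.31% higher and 1.4% lower). TG_PS19 against PS19 gave 13 calls, 6 higher and 7 lower, against 4.7% of all (3.05% higher and 1.65% lower). TG_PS19 against WT gave 5, all lower in TG_PS19, against 1.92% of all (1.37% higher and 0.553% lower). DESeq2 on the same sums called 5, 1 and 0 of the pairs in the 3 comparisons, against 0.304%, 0.811% and 0.151% of all. Of the microglial calls in PS19 against WT and TG_PS19 against PS19, DESeq2 kept only those of Lpl. It ended those of Apoe, Clu, Abca1 and Soat1 in both comparisons and that of Lrp1 in PS19 against WT. Thinning nuclei to 1000 UMIs ended the calls in PS19 against WT of Clu and Lpl in dentate granule neurons, Lrp1 and Plin2 in microglia, Vldlr in astrocytes and Abca1 in oligodendrocytes. It also ended those in TG_PS19 against PS19 of Apoe in dentate granule neurons, Clu in dentate granule neurons, microglia and oligodendrocytes, and Abca1 in astrocytes, oligodendrocytes and oligodendrocyte precursors, and those in TG_PS19 against WT of Clu in dentate granule neurons and oligodendrocytes. Microglia held 7 of the 17 calls in PS19 against WT from 8 genes tested there, where 8.28% of microglial genes were called. They also held 5 of the 13 calls in TG_PS19 against PS19, where 9.27% were called. The median log2 fold change of the 8 genes in microglia was 0.74 in PS19 against WT and -0.88 in TG_PS19 against PS19, beside 0.01 and -0.01 over all genes tested. For TG_PS19 against WT none of the 8 was called in microglia by edgeR (0 at an unadjusted p under 0.05), where 0.784% of genes were called, and their median was -0.10.

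Apoe (chromosome 7, 19696109 to 19699188, build GRCm38) encodes the main apolipoprotein of brain lipoproteins. In microglia it measured 1148 CPM (WT), 2419.7 and 1689 CPM (PS19 pair) and 849 CPM (TG_PS19), where here and below the values of the PS19 pair are those of replicate 1 and replicate 2. Both PS19 libraries were above the other 2. Apoe rose in PS19 microglia by 0.83 (log2, SE 0.16, edgeR adjusted p = 1.3e-05) and was lower in TG_PS19 than in PS19 by a log2 fold change of -1.18 (SE 0.17, adjusted p = 2.45e-10). DESeq2 kept neither call. The PS19 libraries differed from each other by 0.52 on the log2 scale.

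Outside microglia Apoe took other directions. Astrocytes held 4202 CPM (WT), 4576 and 3193 CPM (PS19 pair) and 3438 CPM (TG_PS19). The PS19 pair spanned the WT value, and the log2 fold changes of -0.15 in PS19 against WT and 0.01 in TG_PS19 against PS19 were not called (edgeR adjusted p = 0.692 and 0.981). Oligodendrocytes gave 1330 CPM (WT), 1509.65 and 1119.8 CPM (PS19 pair) and 1092 CPM (TG_PS19), with no call. Dentate granule neurons gave 260.4 CPM (WT), 141 and 113 CPM (PS19 pair) and 169 CPM (TG_PS19), so that PS19 was lowest. There Apoe fell by 1.02 on the log2 scale in PS19 (SE 0.10, adjusted p = 2.38e-21), where 3.24% of that class's genes were called, and was higher in TG_PS19 than in PS19 by 0.52 (SE 0.10, adjusted p = 4.02e-05). TG_PS19 was still below WT, by a log2 fold change of -0.51 (adjusted p = 0.00044). In this class 9.44% of genes were called in TG_PS19 against PS19 and 6.12% against WT. Mural cells gave 1183 CPM in WT, 537 CPM in each PS19 library and 1014 CPM in TG_PS19. These values gave a fall of 1.13 (SE 0.22, edgeR adjusted p = 0.000542) and a rise of 0.98 in TG_PS19 against PS19 (SE 0.22, adjusted p = 0.00802), in a class where 0.129% and 0.307% of genes were called. Neither mural call was kept under relative log expression scaling or by DESeq2. With the Y-called nuclei of TG_PS19 alone the mural rise was 0.68 and not called (adjusted p = 0.612).

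Clu (chromosome 14, 65968483 to 65981547) encodes clusterin, also called apolipoprotein J, a secreted chaperone carried on lipoproteins. Microglia held 178 CPM (WT), 68.1 and 50.8 CPM (PS19 pair) and 122 CPM (TG_PS19). The PS19 libraries were the lowest and did not overlap with either. Clu fell in PS19 microglia by 1.60 (log2, SE 0.23, edgeR adjusted p = 3.45e-10) and was higher in TG_PS19 than in PS19 by 1.14 (SE 0.26, adjusted p = 0.00026). Y-called TG_PS19 microglia alone gave 0.74 with no call (adjusted p = 0.44). Neither microglial call was kept by DESeq2. Oligodendrocytes showed the same order, with 161 CPM (WT), 62.8 and 52.8 CPM (PS19 pair) and 94.6 CPM (TG_PS19). The log2 fold changes there were -1.43 in PS19 against WT (SE 0.13, adjusted p = 1.6e-26), 0.77 in TG_PS19 against PS19 (SE 0.13, adjusted p = 7.44e-07) and -0.66 in TG_PS19 against WT (adjusted p = 0.000677). In oligodendrocytes 6.93%, 9.1% and 3.36% of genes were called in these comparisons.

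The fall of Clu in PS19 extended to dentate granule neurons, mural cells and fibroblasts. Dentate granule neurons gave 55.4 CPM (WT), 27.6 and 22.7 CPM (PS19 pair) and 34.97 CPM (TG_PS19). PS19 was 1.14 lower than WT (log2, SE 0.14, edgeR adjusted p = 1.68e-12), and TG_PS19 was 0.59 above PS19 (SE 0.16, adjusted p = 0.00394), which the Y-called nuclei alone gave as 0.43 without a call (adjusted p = 0.309). Mural cells held 264 CPM (WT), 127 and 87.0 CPM (PS19 pair) and 153 CPM (TG_PS19), with a log2 fold change of -1.31 in PS19 (SE 0.32, adjusted p = 0.0314), a call kept by 3 of 6 other settings. Fibroblasts held 199.6 CPM (WT), 105 and 68.0 CPM (PS19 pair) and 115 CPM (TG_PS19), with a log2 fold change of -1.19 in PS19 (SE 0.21, adjusted p = 0.00139), where 1.33% of genes were called. In oligodendrocyte precursors Clu was lower in TG_PS19 than in WT (81.0 against 156 CPM, log2 fold change -0.83, edgeR adjusted p = 0.0253), where 0.73% of genes were called, and the PS19 libraries stood at 125 and 72.2 CPM. That call was kept by 4 of 7 other settings and lost under DESeq2, with predicted doublets kept and at resolution 2.0.

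Astrocytes, by far the richest class for Clu, behaved otherwise. They held 1514 CPM (WT), 2131 and 1198 CPM (PS19 pair) and 762 CPM (TG_PS19). The PS19 libraries lay on either side of WT and 0.83 apart on the log2 scale, and PS19 against WT was not called (0.10, edgeR adjusted p = 0.83). TG_PS19 was the lowest library, at a log2 fold change of -0.94 from PS19 (SE 0.14, adjusted p = 2.38e-09) and -0.84 from WT (SE 0.16, adjusted p = 2.37e-05), where 2.17% of genes were called. The gap within the PS19 pair was close in size to these differences, and neither call was kept under relative log expression scaling or by DESeq2.

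Astrocyte RNA in other classes moved with some of these results. The summed level of 8 astrocyte markers in microglia was 936 CPM (WT), 692 and 532 CPM (PS19 pair) and 882 CPM (TG_PS19). In oligodendrocytes it was 718, 304, 264 and 516 CPM in the same order, so that PS19 was lowest there as for Clu. It did not move in that way in dentate granule neurons, with 939 to 992 CPM over the 4 libraries. Mural cells (5892 to 6590 CPM) and fibroblasts (5327 to 6560 CPM) had their lowest sum in WT, where Clu was highest. No marker was at 0 in oligodendrocytes, dentate granule neurons or fibroblasts, whereas Aldh1l1 was at 0 in 2 microglial sums and 3 mural sums. Astrocytes made up 22.8% of kept nuclei in WT, 13.3% and 13.9% in PS19 and 17.5% in TG_PS19. The part of astrocyte RNA in the Clu and Apoe results of other classes was not tested.

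**Figure D2:**
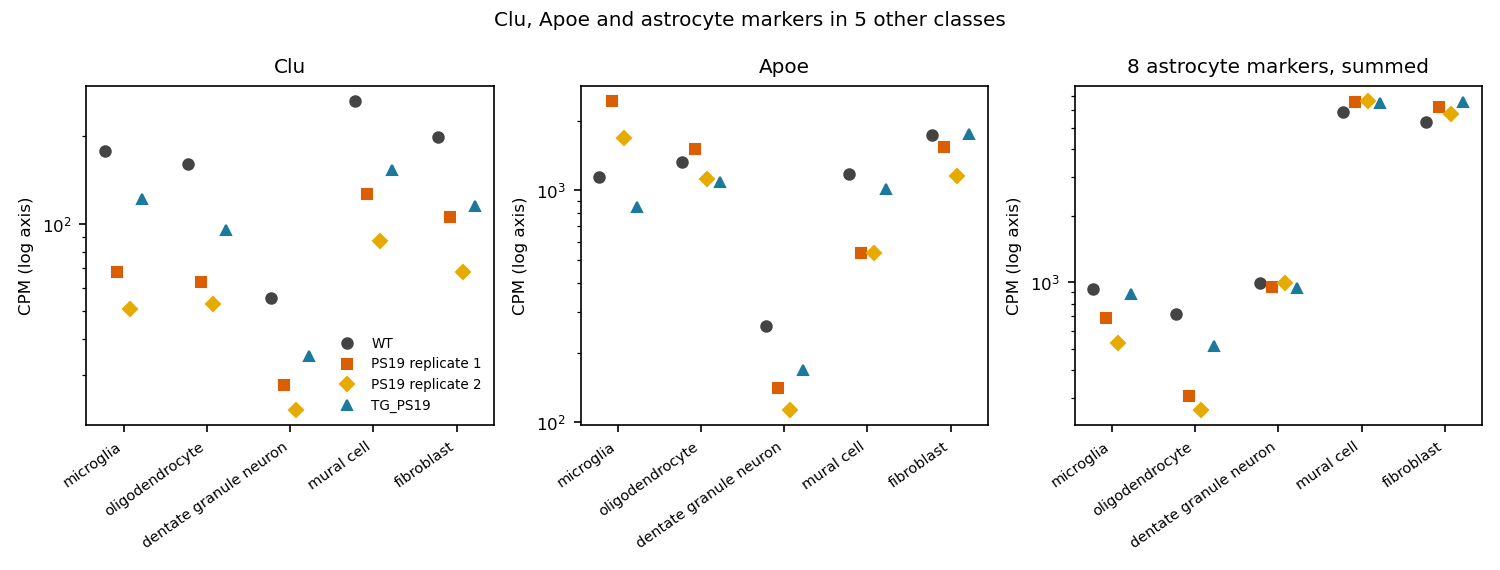
Clu (left), Apoe (middle) and the sum of 8 astrocyte markers (right) in 5 classes other than astrocytes (x axis), in CPM on a log y axis with 1 point per library. In oligodendrocytes the marker sum falls in PS19 (718 CPM in WT, 304 and 264 CPM in PS19) as Clu does (161 CPM, 62.8 and 52.8 CPM), while in dentate granule neurons it stays between 939 and 992 CPM as Clu falls from 55.4 CPM to 27.6 and 22.7 CPM.

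Lpl (chromosome 8, 68880491 to 68907448) encodes lipoprotein lipase, which splits the triglycerides of lipoproteins. In microglia it gave 6 UMIs (WT), 60 and 54 UMIs (PS19 replicates 1 and 2) and 3 UMIs (TG_PS19). These equal 6.06, 92.8, 66.9 and 4.198 CPM, and the PS19 values were far from both others. The ratio of pooled PS19 to WT was 12.95 (95% counting interval 5.77 to 36.0), and that of PS19 to TG_PS19 was 18.7 (6.23 to 92.0). The fitted log2 fold changes were 3.66 in PS19 against WT (SE 0.44, edgeR adjusted p = 4.82e-14) and -4.09 in TG_PS19 against PS19 (SE 0.53, adjusted p = 2.63e-12). In TG_PS19 the Y-called microglia had no Lpl UMI, so no fold is given for them.

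Lpl was found in 0.856% of WT microglia, 8.27% and 8.83% of PS19 microglia and 0.75% of TG_PS19 microglia. After each nucleus was thinned to 1000 UMIs, the shares were 0.18%, 4.35%, 4.26% and 0.256%. Astrocytes, at higher median depths (2892 to 4543 UMIs against 1606 to 2607 in microglia), gave 0.446% to 1.11% in the 4 libraries, a level that the PS19 microglia exceeded. Dentate granule neurons went the other way, with 27.5 CPM (WT), 15.2 and 10.0 CPM (PS19 pair) and 16.9 CPM (TG_PS19). WT was highest there, and Lpl fell by 1.14 in PS19 (log2, SE 0.19, edgeR adjusted p = 3.12e-07), a call that 4 of 6 other settings kept and DESeq2 and thinning did not. TG_PS19 was 0.56 above PS19 without a call (adjusted p = 0.0732). In astrocytes (1.37 to 4.04 CPM) and oligodendrocytes (1.83 to 4.37 CPM) the gene was low and not called. Its log2 fold changes in PS19 against WT were -1.18 in astrocytes and -0.98 in oligodendrocytes.

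Lrp1 (chromosome 10, 127538161 to 127621148) encodes a large endocytic receptor for apolipoprotein E that also takes up tau. Microglia held 573 CPM (WT), 429 and 411 CPM (PS19 pair) and 521 CPM (TG_PS19). The PS19 pair was lowest, and the fall of 0.46 on the log2 scale passed the threshold narrowly (SE 0.16, edgeR adjusted p = 0.0467). Of 6 other settings with a test, 1 kept that call. TG_PS19 against PS19 gave 0.40 with no call (adjusted p = 0.114). Astrocytes ranged from 167 to 196 CPM over the 4 libraries and oligodendrocytes from 13.7 to 22.6 CPM, with no call in either.

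Vldlr (chromosome 19, 27216484 to 27254231) encodes the very-low-density lipoprotein receptor, which also receives Reelin in neurons. In oligodendrocytes, its richest class, it held 142 CPM (WT), 117 and 123 CPM (PS19 pair) and 128 CPM (TG_PS19). The libraries lay close together, and neither comparison was called (log2 fold changes -0.19 and 0.14, edgeR adjusted p = 0.46 and 0.57). In astrocytes Vldlr was low, at 17.2 CPM (WT), 11.1 and 8.45 CPM (PS19 pair) and 14.5 CPM (TG_PS19). The fall of 0.87 in PS19 was called (SE 0.28, adjusted p = 0.039) and was kept by 2 of 6 other settings. The difference of 0.78 between TG_PS19 and PS19 was not called (adjusted p = 0.0949). Microglia gave 3 to 9 UMIs per library, too few to test.

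Abca1 (chromosome 4, 53030787 to 53159895) encodes the transporter that loads cholesterol onto apolipoprotein E and is a known target of the liver X receptors. In microglia, astrocytes and oligodendrocytes it was called with the PS19 pair on top, and in oligodendrocyte precursors with the PS19 pair lowest. Microglia held 318 CPM (WT), 526 and 482 CPM (PS19 pair) and 291 CPM (TG_PS19). Astrocytes held 195 CPM (WT), 344 and 302 CPM (PS19 pair) and 195 CPM (TG_PS19). Oligodendrocytes held 94.4 CPM (WT), 158 and 153 CPM (PS19 pair) and 101 CPM (TG_PS19). In each class both PS19 libraries stood above WT and TG_PS19, which lay near each other.

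The log2 fold changes of Abca1 in PS19 against WT were 0.65 in microglia (SE 0.17, edgeR adjusted p = 0.00246), 0.69 in astrocytes (SE 0.14, adjusted p = 2.57e-05) and 0.77 in oligodendrocytes (SE 0.13, adjusted p = 3.91e-07). In TG_PS19 against PS19 they were -0.70 (SE 0.18, adjusted p = 0.00182), -0.54 (SE 0.14, adjusted p = 0.00184) and -0.56 (SE 0.13, adjusted p = 0.000489). The change in microglia did not differ by the test from that in astrocytes (difference -0.03, SE 0.18, adjusted p = 1 in PS19 against WT) or in oligodendrocytes (difference -0.10, SE 0.15, adjusted p = 0.894). Astrocytes had 5.82% and 9.16% of genes called in these comparisons. Y-called TG_PS19 microglia alone gave -0.64 with no call (adjusted p = 0.144). Of the Abca1 calls in microglia, astrocytes and oligodendrocytes, DESeq2 kept only that of oligodendrocytes in PS19 against WT. Relative log expression scaling ended the astrocyte call in TG_PS19 against PS19. The share of nuclei with an Abca1 UMI in oligodendrocytes, thinned to 1000 UMIs, was 7.98% (WT), 14.96% and 13.7% (PS19 pair) and 9.55% (TG_PS19). The fit on thinned counts kept neither call of Abca1 in oligodendrocytes.

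Each of the 3 oligodendrocyte clusters also had the PS19 pair on top for Abca1. The cluster led by Enpp6 held 98.2 CPM (WT), 161 and 153 CPM (PS19 pair) and 109.7 CPM (TG_PS19). That led by C030029H02Rik held 102, 175, 164 and 95.6 CPM, and that led by 7630403G23Rik held 75.0, 140.0, 145 and 94.4 CPM. Astrocytes divided into a large cluster led by Rorb and a smaller one led by Myoc and Gfap, an intermediate filament gene of reactive astrocytes. Abca1 in the first was 195 CPM (WT), 295 and 259 CPM (PS19 pair) and 195 CPM (TG_PS19). In the second, with 192, 155, 164 and 76 nuclei, it was 186, 468, 419 and 181 CPM. Both clusters thus had PS19 on top, and the PS19 levels were higher in the second.

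Oligodendrocyte precursors held, for Abca1, 179 CPM (WT), 138 and 108 CPM (PS19 pair) and 188 CPM (TG_PS19), so that PS19 was lowest. PS19 against WT was not called (log2 fold change -0.53, edgeR adjusted p = 0.363), and TG_PS19 was above PS19 by 0.72 (SE 0.18, adjusted p = 0.00438), where 2.02% of the genes of the class were called. That call was kept by 4 of 7 other settings and lost under DESeq2, with predicted doublets kept and with thinning. Abcg1 (chromosome 17, 31057675 to 31117988), which exports cholesterol to particles already carrying lipid, was called in none of 33 edgeR tests over classes and comparisons, 2 of which had an unadjusted p under 0.05. Microglia held 118 CPM (WT), 147 and 138 CPM (PS19 pair) and 101 CPM (TG_PS19). This is the order seen for Abca1, but the log2 fold changes of 0.25 and -0.40 did not pass (adjusted p = 0.615 and 0.363). In oligodendrocytes Abcg1 lay between 146 and 161 CPM in all 4 libraries.

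Soat1 (chromosome 1, 156424525 to 156474331) encodes the enzyme that esterifies cholesterol for storage. Microglia held 59.6 CPM (WT), 175 and 145 CPM (PS19 pair) and 67.2 CPM (TG_PS19). The PS19 pair stood above both other libraries. Soat1 rose by 1.40 in PS19 (log2, SE 0.24, edgeR adjusted p = 6.09e-07) and was lower in TG_PS19 than in PS19 by a log2 fold change of -1.15 (SE 0.26, adjusted p = 0.000237). With Y-called TG_PS19 nuclei alone it was -0.80 and not called (adjusted p = 0.308). Neither call was kept by DESeq2. Shares of microglia with a Soat1 UMI, thinned to 1000 UMIs, were 5.05% (WT), 17.4% and 13.8% (PS19 pair) and 7.16% (TG_PS19). In astrocytes, the class richest in Soat1, the 4 libraries lay between 177 and 189 CPM with no call.

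Plin2 (chromosome 4, 86648386 to 86670060) encodes perilipin 2, a coat protein and common marker of lipid droplets. In microglia it gave 13 UMIs (WT), 24 and 31 UMIs (PS19 pair) and 12 UMIs (TG_PS19). These equal 13.1, 37.1, 38.4 and 16.8 CPM, with the PS19 pair above both others. The rise of 1.51 in PS19 was called (SE 0.44, edgeR adjusted p = 0.0119) and kept by 3 of 5 other settings, and the log2 fold change of -1.07 in TG_PS19 against PS19 was not (SE 0.46, adjusted p = 0.139). Astrocytes held 7.82 to 16.2 CPM and oligodendrocytes 0.623 to 2.66 CPM, with no call.

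**Figure D3:**
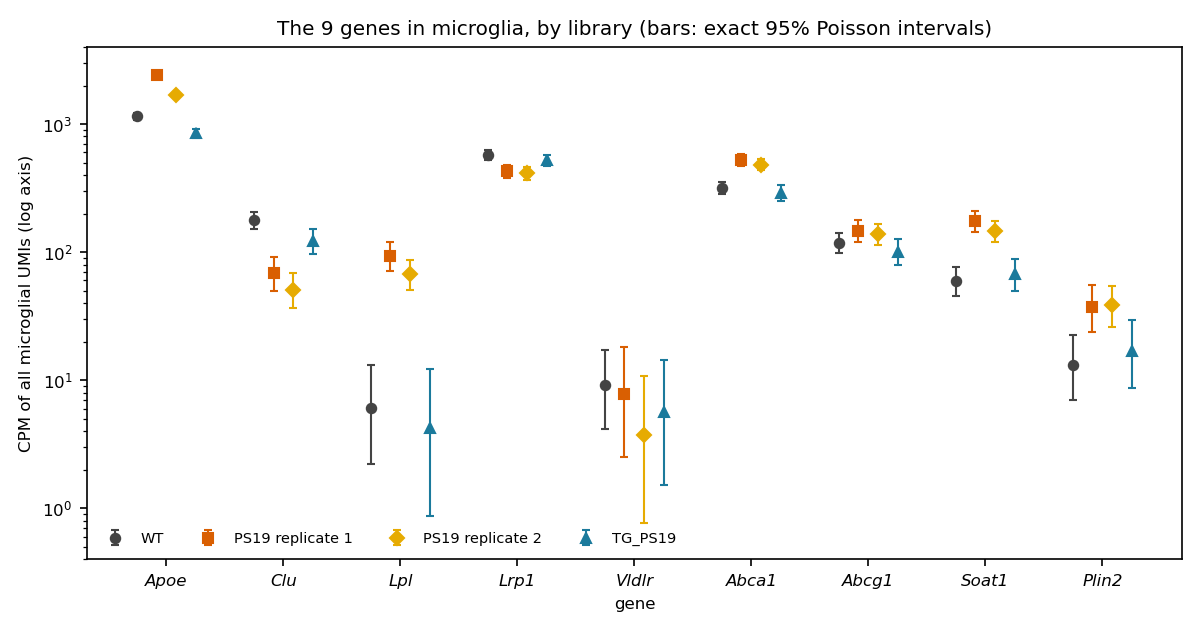
Level of the 9 genes in microglia (y axis, CPM on a log axis), with 1 point per library and exact Poisson intervals at 95% that cover counting error only. Apoe, Lpl, Abca1, Soat1 and Plin2 are higher in both PS19 libraries than in WT and TG_PS19, Clu and Lrp1 are lower, and the intervals of Vldlr overlap.

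The microglial sums mix clusters whose proportions differed between libraries. The cluster led by Siglech and Inpp5d held 567 nuclei in WT, 61 and 75 in PS19 and 390 in TG_PS19. The cluster led by Ly86 and Fyb held 17, 193, 208 and 10. The 9 genes took no part in choosing the genes used for clustering. In the first cluster Apoe measured 1062 CPM (WT), 962 and 410 CPM (PS19 pair) and 843 CPM (TG_PS19), so that PS19 was not higher there. Lpl gave 4, 1, 0 and 3 UMIs in it. Abca1 was 303 CPM (WT), 407 and 285 CPM (PS19 pair) and 295 CPM (TG_PS19), and Lrp1 was 519 to 575 CPM in all 4. Soat1 was 55.4 CPM (WT), 88.8 and 83.0 CPM (PS19 pair) and 64.7 CPM (TG_PS19), and Plin2 was 13.6, 37.0, 46.7 and 17.3 CPM from 5 to 13 UMIs. Clu was 180, 88.8, 46.7 and 122 CPM.

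In the cluster led by Ly86 the PS19 libraries held 2805 and 2091 CPM of Apoe, 115 and 87.9 CPM of Lpl, 198 and 164 CPM of Soat1 and 558 and 544 CPM of Abca1. Its 17 WT nuclei gave 3518 CPM of Apoe, 173 CPM of Soat1, 721 CPM of Abca1 and 2 UMIs of Lpl. Its 10 TG_PS19 nuclei gave 1096 CPM of Apoe, 157 CPM of Soat1 and of Abca1, and no Lpl UMI. The class-wide rise of Apoe and Lpl in PS19 thus stood beside a larger share of nuclei in this cluster, and a change of level within the cluster was not tested, given its few WT and TG_PS19 nuclei. Clu in this cluster was 62.6 and 52.1 CPM in PS19, near its level in the Siglech-led cluster.

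Microglia were also divided by UMIs of at least 2 of 11 markers of the disease-associated state, none of which is among the 9 genes. Such nuclei were 21 among 584 (WT), 133 among 254 and 121 among 283 (PS19 pair), and 15 among 400 (TG_PS19). In PS19 replicate 1 they held 3104 CPM of Apoe (95% interval 2929 to 3287), against 1464 CPM (1323 to 1616) in the other nuclei. In replicate 2 the values were 2447 CPM (2295 to 2607) against 969 CPM (876 to 1069). Lpl gave 59 UMIs in the marked nuclei of replicate 1 and 1 in the others, and 52 and 2 UMIs in replicate 2. The state-marked nuclei thus held most Lpl UMIs of PS19 microglia in both replicates.

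The remaining genes divided less sharply. Soat1 was 199 against 141 CPM in replicate 1 and 178 against 114 CPM in replicate 2, Abca1 550 against 493 CPM and 532 against 435 CPM, and Abcg1 165 against 122 CPM and 150 against 126 CPM. Plin2 was 47.8 against 22.2 CPM and 43.2 against 33.8 CPM. Before thinning, Lrp1 was lower in the marked nuclei, at 374 against 504 CPM and 389 against 433 CPM. Clu was 71.7 against 63.0 CPM and 50.9 against 50.7 CPM, with no division. Marked nuclei were deeper (median 2522 against 2040 UMIs in replicate 1 and 2920 against 2389 UMIs in replicate 2), and deeper nuclei show markers more easily. After every nucleus was thinned to 1000 UMIs, nuclei were marked anew on the thinned counts. This left 82 marked and 171 other nuclei in replicate 1, and 60 and 222 in replicate 2. Apoe was then 3171 against 2047 CPM and 2700.0 against 1464 CPM, and Lpl 171 against 17.5 CPM and 167 against 31.5 CPM. Soat1, Abca1 and Abcg1 kept their order in both replicates. Lrp1 was 354 against 474 CPM in replicate 1 but 517 against 414 CPM in replicate 2, where its order turned. Plin2 also turned in replicate 2, at 33.3 against 36.0 CPM from 2 and 8 UMIs. These groups are not the nuclei compared above, since fewer nuclei show markers at this depth.

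**Figure D4:**
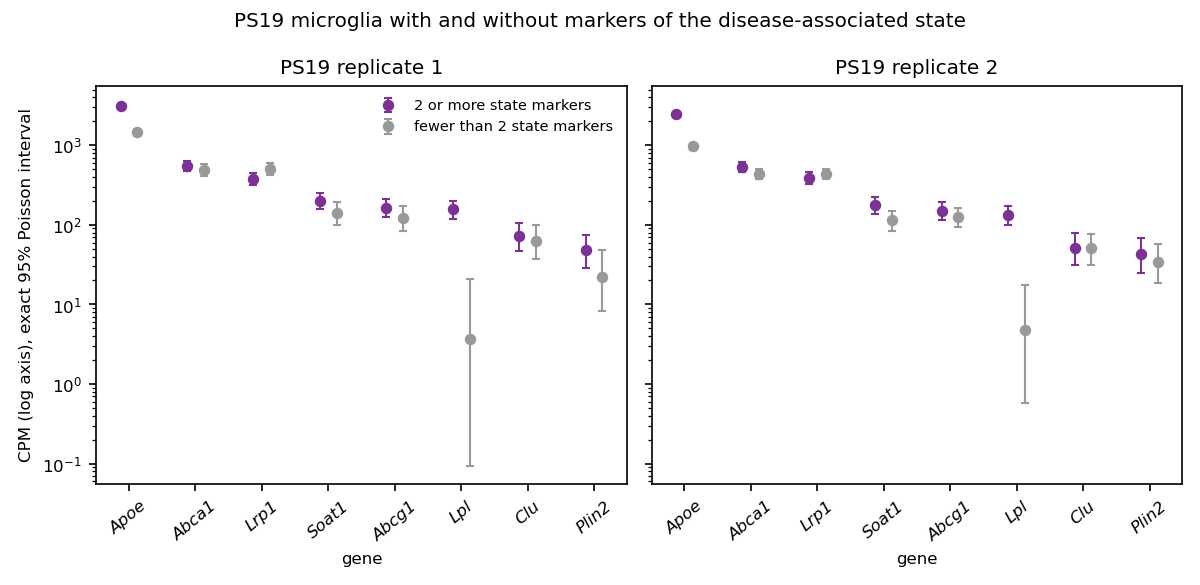
Level of 8 genes (y axis, CPM on a log axis, exact 95% Poisson intervals) in PS19 microglia with UMIs of 2 or more of 11 state markers and in those with fewer, for replicate 1 (left) and replicate 2 (right). Lpl divides most, at 157 against 3.71 CPM and 132 against 4.83 CPM, Apoe less, and Clu does not.

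Whether microglia and astrocytes changed differently was tested directly through the interaction of class and group. In PS19 against WT the change in microglia minus that in astrocytes was 1.49 for Soat1 (SE 0.25, edgeR adjusted p = 1.11e-06), 0.98 for Apoe (SE 0.29, adjusted p = 0.0373), 4.85 for Lpl (SE 0.79, adjusted p = 3.44e-07) and -1.65 for Clu (SE 0.29, adjusted p = 2.66e-06). These are 4 of 9 genes, where 2.61% of 15573 genes were called. Plin2 differed by 1.78 without a call (SE 0.57, adjusted p = 0.0593). For TG_PS19 against PS19 the same 4 genes were called with opposite signs, at -1.31 for Soat1, -1.19 for Apoe, -3.90 for Lpl and 2.04 for Clu, against 2.04% of genes. Between microglia and oligodendrocytes Lpl alone was called, at 4.67 in PS19 against WT (SE 0.64, adjusted p = 0.0473), against 0.211% of 16552 genes. Without a call, Apoe differed there by 0.81 (SE 0.14, adjusted p = 0.0983), Soat1 by 1.35 (SE 0.28, adjusted p = 0.166) and Clu by -0.15 (SE 0.21, adjusted p = 0.883). None of the 9 was called in TG_PS19 against PS19, where 0.133% were, with -0.97 for Apoe, -1.40 for Soat1, -4.47 for Lpl and 0.36 for Clu. A missing call in this pair does not show that the changes were alike. Each pair of classes had its own fit, and each SE was derived from the test statistic of that fit. The SEs of this pair and of the astrocyte pair therefore do not measure certainty alike.

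**Figure D5:**
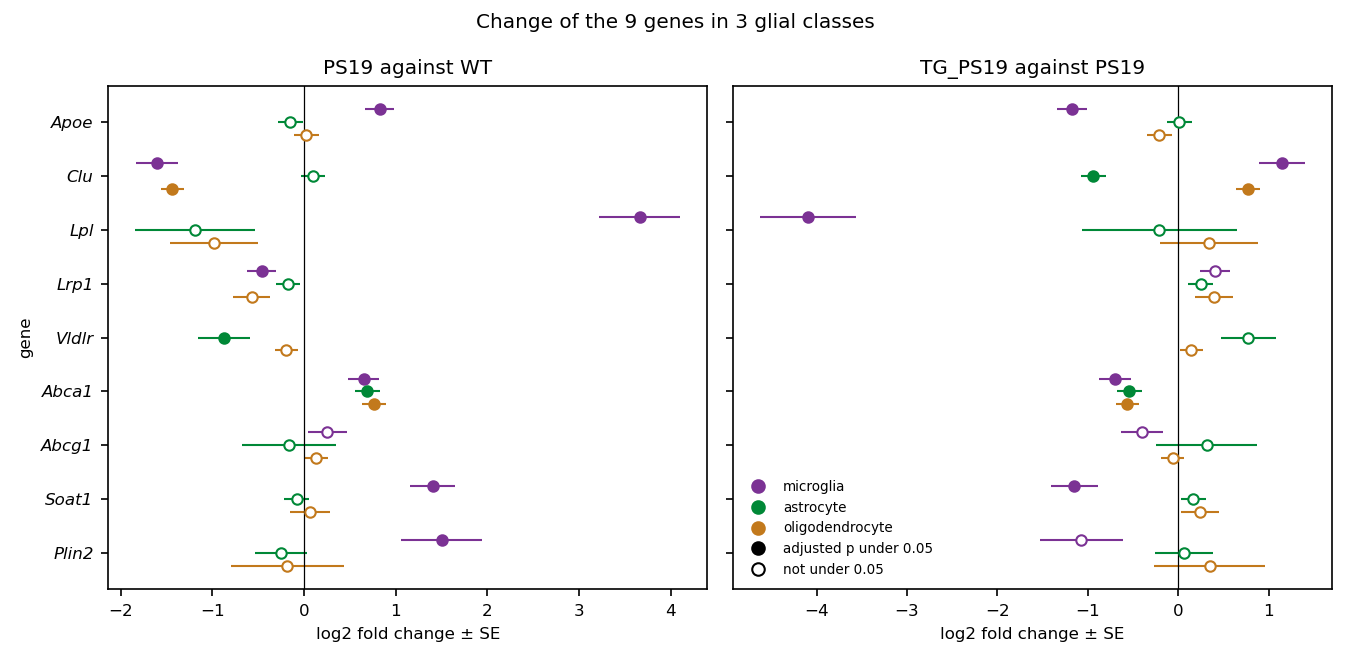
Log2 fold change with its standard error (x axis) of the 9 genes (y axis) in microglia, astrocytes and oligodendrocytes, for PS19 against WT (left) and TG_PS19 against PS19 (right), with filled points at an edgeR adjusted p under 0.05. Abca1 lies at 0.65 to 0.77 in the 3 classes on the left and at -0.54 to -0.70 on the right, whereas Lpl, Soat1 and Apoe are called in microglia alone among the 3 and Clu takes both signs.

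Other genes of the same pathways were counted from 5 lists. With the Y-called nuclei of TG_PS19 alone, 22 of the 35 calls given below that involve TG_PS19 were lost, and DESeq2 kept 5 of 56 calls it could be set against. In microglia the median log2 fold changes of the lists in PS19 against WT and in TG_PS19 against PS19 were 0.08 and -0.21 (sensing factors), -0.19 and -0.05 (storage), -0.08 and -0.06 (sterol transport), 0.09 and 0.02 (receptors) and -0.63 and 0.10 (particles), beside 0.01 and -0.01 over all genes. Of the sterol and lipid sensing factors, 14 of 19 were tested in microglia, where 8.28% of all genes were called, and in PS19 against WT Mitf and Ppard rose and Lpcat3 fell. Mitf, a transcription factor of the lysosome and lipid program, held 391 CPM (WT), 874 and 967 CPM (PS19 pair) and 452 CPM (TG_PS19). It rose by 1.23 (SE 0.17, edgeR adjusted p = 4.35e-11) and was lower in TG_PS19 by a log2 fold change of -0.93 (SE 0.17, adjusted p = 2.15e-06), and every other setting with a test kept both calls. Ppard, a fatty acid sensor, changed by 0.88 and -0.71 (adjusted p = 0.002 and 0.0288), and 5 of 6 and 3 of 7 other settings kept these calls. Lpcat3, a phospholipid remodelling enzyme, changed by -0.56 in PS19 (adjusted p = 0.046), a call kept by 1 of 6 settings. In astrocytes, with 19 of 19 tested, Insig1, which retains sterol sensors in the endoplasmic reticulum, fell by 1.01 in PS19 (adjusted p = 6.18e-07). Pparg and Ppard were lower in TG_PS19 than in PS19 astrocytes (log2 fold changes -1.07 and -0.58, adjusted p = 0.0491 and 0.0355), and each call was kept by 1 of 7 other settings. In oligodendrocytes, of 16 tested, Srebf1, which drives lipid synthesis, was lower in TG_PS19 than in PS19 (-0.69, adjusted p = 0.00224), and Mitf was higher in TG_PS19 than in WT (0.49, adjusted p = 0.0257).

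The lipid storage list had 12 of 28 genes tested in microglia, with 1 higher and 2 lower in PS19 against WT, where 8.28% of microglial genes were called. Nceh1, which hydrolyses cholesterol esters, held 29.3 CPM (WT), 107 and 73.1 CPM (PS19 pair) and 29.4 CPM (TG_PS19). PS19 stood above both, with log2 fold changes of 1.59 (SE 0.32, edgeR adjusted p = 4.13e-05) and -1.5 in TG_PS19 against PS19 (SE 0.35, adjusted p = 0.000493). Acsl3 and Mgll fell in PS19 (-1.86 and -0.75, adjusted p = 5.41e-06 and 0.0091) and were higher in TG_PS19 than in PS19 (1.70 and 0.75, adjusted p = 0.000237 and 0.0158). The fall of Acsl3 was -2.33 without PS19 replicate 1 and -1.44 without replicate 2, and the calls of Mgll were kept by 2 of 6 and 2 of 7 other settings. Acsl3 stood at 845 CPM in WT astrocytes against 62.6 CPM in WT microglia, and the astrocyte marker sum in microglia was also lowest in PS19 (936 CPM in WT, 692 and 532 CPM in PS19). The part of astrocyte RNA in this was not tested. In oligodendrocytes, with 20 of 28 tested, 1 gene was higher and 3 lower in PS19 against WT, where 6.93% of genes were called. The perilipin gene Plin4 was the higher one, with 10.6 CPM (WT), 51.5 and 53.9 CPM (PS19 pair) and 16.03 CPM (TG_PS19). It rose by 2.36 (SE 0.19, adjusted p = 1.79e-31) and was lower in TG_PS19 by a log2 fold change of -1.66 (SE 0.18, adjusted p = 1.19e-17).

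Mgll fell by 1.03 in PS19 oligodendrocytes (edgeR adjusted p = 0.000838), and Fabp7 went from 35 UMIs in WT to 2 and 3 in PS19, a ratio of 11.03 (95% counting interval 4.30 to 36.1). Acsl3 was the remaining lower gene. The astrocyte marker sum in oligodendrocytes fell alongside (718 CPM in WT, 304 and 264 CPM in PS19), WT astrocytes held 845 CPM of Acsl3 and 30.4 CPM of Fabp7, and the part of astrocyte RNA was not tested. Acsl3 was higher (0.54, adjusted p = 0.000595) and Dgat2, an enzyme of triglyceride synthesis, lower in TG_PS19 than in PS19 oligodendrocytes (-1.03, adjusted p = 0.000481). In astrocytes, with 23 of 28 tested and 5.82% of genes called, Fabp5 and Fabp7 were lower in PS19 against WT (-0.56 and -0.69, adjusted p = 0.0271 and 0.0253), each kept by 2 of 6 other settings. Acsl3, Fabp7 and Lipe were higher in TG_PS19 than in PS19 astrocytes (0.39, 0.68 and 0.61, adjusted p = 0.036, 0.0343 and 0.0231), and of 7 other settings 1 kept Acsl3, 2 kept Fabp7 and 1 kept Lipe.

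Among genes of sterol export and transport within the cell, 18 of 27 were tested in microglia, with 3 higher and 0 lower in PS19 against WT by edgeR, where 8.28% of microglial genes were called. These were Npc2, which carries cholesterol out of lysosomes (0.59, adjusted p = 0.0366), Osbp (0.95, adjusted p = 0.0465) and Osbpl8 (0.78, adjusted p = 0.000228), both oxysterol-binding proteins. Library totals, DESeq2 and thinning kept neither Npc2 nor Osbp. Osbpl8 was lower in TG_PS19 than in PS19 (-1.01, adjusted p = 4.19e-06) and Abca9 higher (0.84, adjusted p = 1.47e-05). In astrocytes, of 25 tested, Gramd1c, a sterol transfer protein, rose by 0.76 in PS19 (adjusted p = 0.000879) and was lower in TG_PS19 (-0.60, adjusted p = 0.02), and Stard4 fell by 1.30 in PS19 (adjusted p = 0.00147). In oligodendrocytes, of 25 tested, Cyp7b1, Cyp46a1 and Stard5 fell in PS19 (-1.47, -1.28 and -0.83, adjusted p = 3.28e-05, 0.0261 and 0.000953). Stard4 was higher in TG_PS19 than in PS19 (0.88, adjusted p = 0.0494, kept by 2 of 6 other settings), and Stard5 lower in TG_PS19 than in WT (-0.75, adjusted p = 0.0388).

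Of 23 receptors and adaptors, 18 were tested in microglia, with 0 higher and 2 lower in PS19 against WT by edgeR, beside 8.28% of microglial genes called. These were Dab1, an adaptor of the Reelin receptors (-1.11, adjusted p = 0.0184), and Lrpap1, the chaperone of LRP1 (-0.85, adjusted p = 0.0157), kept by 3 and 2 of 6 other settings. Dab1 in microglia was 50.5 CPM (WT), 26.3 and 21.1 CPM (PS19 pair) and 39.2 CPM (TG_PS19), and the sum of 6 neuron markers there was 286, 80.5, 55.8 and 174 CPM in the same order of libraries. The part of neuronal or astrocyte RNA in Dab1 was not tested. In TG_PS19 against PS19 the adaptor Dab2 was lower (-2.03, adjusted p = 0.00371), as was Lrp1b (-0.92, adjusted p = 0.00114), whose sign turned to 1.15 with predicted doublets kept (adjusted p = 0.000572) and which stood at -0.33 without PS19 replicate 1. The scavenger receptor Msr1 gave 7 UMIs in WT, 13 and 17 in PS19 and 0 in TG_PS19, at least 4.92-fold lower in TG_PS19 than in PS19 with TG_PS19 set at 3 counts. Astrocytes had Lrpap1 lower in PS19 (-0.45, adjusted p = 0.0425, kept by 1 of 6 other settings) and also in TG_PS19 against WT (-0.57, adjusted p = 0.0418, kept by 2 of 7). Dab1 was higher in TG_PS19 than in PS19 astrocytes (0.49, adjusted p = 0.00333).

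In oligodendrocytes Dab1 held 81.0 CPM (WT), 35.7 and 29.1 CPM (PS19 pair) and 47.9 CPM (TG_PS19). It fell by 1.28 in PS19 (edgeR adjusted p = 1.12e-16) and was higher in TG_PS19 than in PS19 by 0.63 (adjusted p = 0.00132). Lrp8, a Reelin receptor, changed by -1.97 in PS19 (adjusted p = 0.0191). Lrp4 was called higher and Lrp11 and Lrpap1 were called lower in PS19 oligodendrocytes. TG_PS19 was below WT for Dab1 and Lrpap1 (-0.66 and -0.64, adjusted p = 0.00374 and 0.00619). Dab1 was at 653 to 822 CPM in astrocytes, and in oligodendrocytes the sum of 8 astrocyte markers (718, 304, 264 and 516 CPM) had its order of libraries. So had the sum of 6 neuron markers there, which was 231 CPM (WT), 94.4 and 62.3 CPM (PS19 pair) and 146 CPM (TG_PS19). The part of RNA from either cell type was not tested.

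Of 21 lipoprotein particle genes, 7 were tested in microglia, 14 in astrocytes and 10 in oligodendrocytes. Apod, a small apolipoprotein, fell in PS19 microglia (-0.94, edgeR adjusted p = 2.11e-05) and PS19 astrocytes (-0.62, adjusted p = 0.000551) and rose in PS19 oligodendrocytes (0.47, adjusted p = 0.0109), its richest of the 3 classes at 763 to 1129 CPM. The sum of 8 oligodendrocyte markers was 1255, 947, 843 and 1111 CPM in microglia and 666, 526, 428 and 607 CPM in astrocytes (WT, PS19 pair, TG_PS19), lowest in PS19 as Apod was, and its part in the falls was not tested. Apod was higher in TG_PS19 than in PS19 in microglia (0.72, adjusted p = 0.0067) and astrocytes (0.42, adjusted p = 0.0488), kept by 2 and 1 of 7 other settings. Pltp, the phospholipid transfer protein, was lower in TG_PS19 astrocytes than in PS19 (-1.23, adjusted p = 1.52e-05) and WT (-0.84, adjusted p = 0.0467, kept by 2 of 6 other settings). Lipc was higher in TG_PS19 than in PS19 microglia (1.61, adjusted p = 0.0331) from 6 to 24 UMIs per library, kept by 2 of 6 other settings.

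Patterns over the 48 sums of class and library were compared with 14931 genes by Pearson's r of log2(CPM + 10), as a description, since sums of a library share its depth and sums of a class its composition. The most alike gene was Cd81 for Apoe (r = 0.93), Pla2g7 for Clu (0.93), Dgkz for Lpl (0.78), Ninl for Lrp1 (0.84), Gm11659 for Vldlr (0.88), Pmp22 for Abca1 (0.91), Lrrc8d for Abcg1 (0.86), Adhfe1 for Soat1 (0.88) and Mgmt for Plin2 (0.90). Among the 9 genes, Apoe went with Abca1 (r = 0.82), Clu (0.80) and Soat1 (0.77), and Abca1 with Soat1 (0.77). Abcg1 was near 0 with Apoe (-0.05) and at 0.16 with Abca1, and Vldlr was at -0.59 with Lrp1.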

How the data were processed

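The authors deposited UMI counts per gene and nucleus for 4 single-nucleus libraries, made with Cell Ranger 7.1.0 on GRCm38 per the submitters' processing notes. Per the labels' protocols, 10000 nuclei were loaded on a 10x 3′ kit (version 3.1) and sequenced on a NovaSeq 6000. Nuclei with at least 500 UMIs, 300 genes and at most 5% mitochondrial UMIs were kept. Doublets predicted against simulated ones (0.8% per 1000 nuclei, 172 to 1303 per library) were removed. Clusters (scanpy 1.11.5, leidenalg 0.10.2, 2000 variable genes without the 9 studied, 30 components, resolution 1.0) were named from marker lists, by a rule set after the clusters were seen. Counts were summed per library and class, with at least 50 nuclei in each library.

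Tests used edgeR 4.0.16 in R 4.3.3 (quasi-likelihood, low-count filter, TMM scaling, all 4 libraries), with Benjamini-Hochberg adjustment over all genes of a class at 0.05. The fit leaves 1 residual degree of freedom, and the prior was infinite in 9 of 12 classes, so p-values rest mainly on the trend across genes. Replicates may be technical. The test of 2 classes added a library block. DESeq2 1.42.0, other scalings and filters, thinning to 1000 UMIs and Y-called nuclei were alternatives. On simulated microglial counts of 10593 genes, 31.1% of genes changed by a fold of 2 and 81.5% of those changed by a fold of 4 were recovered.

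The genes and lists were chosen with earlier results of these data known. All 9 genes are named. From the 5 lists, called genes in microglia, astrocytes and oligodendrocytes are named with values, at most 3 of the largest change per list, class and comparison. Lrp4, Lrp11, Lrpap1 and Acsl3 in oligodendrocytes were also named after their calls were seen. Counting intervals are exact Poisson or conditional intervals at 95% and cover counting error only. Folds against a library at 0 use a floor of 3 counts. Gene positions come from GENCODE M21, with 9 of 9 genes matched. Tools were tested on simulated data first. Results of 1 gene of the receptor list are not reported here.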

Additional observations from a re-analysis of the deposited data

Results flagged for a closer look

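The change between groups differed between microglia and astrocytes for 4 genes, by a direct test of the difference with edgeR. In PS19 against WT the change in microglia minus that in astrocytes was 1.49 on the log2 scale for Soat1, 0.98 for Apoe, 4.85 for Lpl and -1.65 for Clu. Soat1, Apoe and Lpl rose in microglia and were not called in astrocytes, and Clu fell in microglia and was not called in astrocytes. In TG_PS19 against PS19 the differences were -1.31 for Soat1, -1.19 for Apoe, -3.90 for Lpl and 2.04 for Clu, and here Clu took opposite signs, higher in microglia and lower in astrocytes. Both comparisons share the PS19 libraries, so the mirrored signs are not separate evidence. Lpl also changed differently in microglia and oligodendrocytes in PS19 against WT, by 4.67.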

How the results depend on the processing

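Of 67 single-gene results on the 9 genes (35 called), the settings with a test kept direction and side of the threshold in 59 of 67 with relative log expression scaling, 60 of 67 with library totals, 59 of 67 with predicted doublets kept, 65 of 67 at resolution 2.0, 40 of 61 with thinning, 28 of 35 with Y-called nuclei and 30 of 58 with DESeq2. Lpl in microglia (both comparisons), Apoe in PS19 dentate granule neurons and Clu in PS19 oligodendrocytes were called in every setting tested. DESeq2 called 5, 1 and 0 of the pairs in PS19 against WT, TG_PS19 against PS19 and TG_PS19 against WT, where edgeR called 17, 13 and 5. Thinning gave 6 and 3 in the latter comparisons, and 2 genes, not 4, whose change in TG_PS19 against PS19 differed between microglia and astrocytes. The cause was not tested. No robust-prior, filter or adjustment setting moved these counts by over 1.5 times.

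All reversals among the 9 genes were of results not called, given as log2 fold changes. In PS19 against WT they were Apoe in oligodendrocytes (-0.0172, library totals), Soat1 in astrocytes (0.0995, thinned) and Plin2 in oligodendrocytes (0.8567, without the cluster led by Enpp6, a setting chosen after seeing the data). In TG_PS19 against PS19 they were Apoe in astrocytes (-0.1756 with library totals, -0.0344 with doublets, -0.0007 thinned, -0.0116 with Y-called nuclei), Soat1 in astrocytes (-0.0192 with totals, -0.1475 thinned) and oligodendrocytes (-0.1284 thinned), and Lpl (-0.1730 thinned) and Lrp1 (-0.2263 with Y-called nuclei) in oligodendrocytes. Plin2 in astrocytes gave -0.1238 with totals, -0.0029 at resolution 2.0 and -1.0540 thinned. Without the Enpp6-led cluster Abcg1 gave 0.0075 and Plin2 -0.3436 in oligodendrocytes. Of the other pathway genes, Lrp1b in microglia turned to 1.1466 with doublets kept. The cause was not tested. Vldlr in astrocytes, TG_PS19 against PS19, became called with doublets kept (0.9622).

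Leaving out a PS19 replicate leaves no residual degrees of freedom, so these are values without a test. For PS19 against WT they ranged from -0.4163 to 0.0769 for Apoe, -0.3573 to 0.4477 for Clu, -1.2323 to 0.3342 for Abcg1 and -0.7920 to 0.2290 for Plin2 in astrocytes, and from -0.1899 to 0.2221 for Apoe and -1.6393 to 0.4391 for Plin2 in oligodendrocytes. For TG_PS19 against PS19 they ranged from -0.2152 to 0.2780 for Apoe, -0.1814 to 1.3850 for Abcg1 and -0.4157 to 0.6052 for Plin2 in astrocytes, and from -0.3988 to 0.0085 for Apoe and -0.2717 to 1.8114 for Plin2 in oligodendrocytes. With library totals the median of all genes moved by over 0.1 in some classes, to -0.19 for astrocytes in TG_PS19 against PS19. No paired analysis was possible because WT and TG_PS19 have 1 library each and share fewer than 2 replicate numbers with PS19. Genes with few UMIs, such as Plin2 in astrocytes and oligodendrocytes and Abcg1 in astrocytes, limit what this depth can show.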
